A study of Homo sapiens with 4 samples.

Results

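Zinc finger mRNAs of chromosome 19 were examined for recovery with IGF2BP3, an RNA-binding protein and m6A reader, in an RNA immunoprecipitation sequencing (RIP-seq) experiment. The members were the 240 protein-coding genes of GENCODE 44 on chromosome 19 whose symbol is ZNF followed by digits, of 20046 protein-coding genes in all. The peaks of both RIP lists with a summit in an exon of a member were taken, which gave 219 of 44622 peaks in replicate 1 and 220 of 42723 in replicate 2. This was 0.503% ± 0.0171 (SD, n = 2) of the lists.

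The study profiled the RNA targets of IGF2BP3 in OE-19, a long-established line derived from an adenocarcinoma arising at the esophagogastric junction (AEG), grown in RPMI1640 with fetal bovine serum. By the labels, cells were fixed with UV light before lysis, a step that the study's RIP method does not mention, RNA was pulled down with an anti-IGF2BP3 antibody, and libraries were made with a directional kit. The series held 4 samples, of which the 2 RIP replicates had a peak list each and the 2 inputs, lysate without antibody, were not analysed here. The labels do not say whether the replicates were separate cultures, so each SD over n = 2 measures only the spread between these samples, which may be technical.

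C2H2 zinc fingers are small folds around a zinc ion, and the proteins of this family carry them in long tandem arrays in which each finger can contact a few bases of DNA. Most genes of the family on chromosome 19 lie in clusters of neighbouring copies that arose by duplication. Many of the proteins also carry a KRAB domain near the N terminus, whose A box recruits TRIM28 (KAP1) and, through it, SETDB1 and HP1 proteins, a machinery best known for silencing transposable elements. In the usual layout of a KRAB zinc finger gene, a short exon encodes the A box and the last coding exon the finger array, though some members, such as ZNF507, have an array split over several exons. The arrays of different genes are alike in sequence, above all in the linker between fingers. IGF2BP3 is known to stabilize bound mRNAs, and the study names TGGAC, in DNA letters, as the consensus of its targets, which contains GGAC, the core of the m6A motif.

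Some of the strongest summits in the coding sequence (CDS) lay in the exon of the A box. Of the 10 members with summits there in both replicates, 3 sequences are shown. Those of ZNF561, ZNF611 and ZNF766, which the rule for named genes placed elsewhere in the CDS outside the arrays, are not shown. The windows that this rule gave for ZNF561 and ZNF611 hold no GGAC, and that of ZNF766 holds 2 copies. Each window is the mRNA strand from 50 nt before to 50 nt after the summit, in GRCh38 (hg38), and capitals mark GGAC. All 3 genes lie on the minus strand, at chr19:9658035-9658135 in exon 4 of ZNF562, chr19:52849113-52849213 in exon 3 of ZNF468 and chr19:52808031-52808131 in exon 3 of ZNF28. The ZNF562 and ZNF468 windows followed the rule for named genes, and the ZNF28 window was added after its values had been seen. Among the members not shown, the windows around summits in this exon of ZNF160, ZNF460, ZNF557, ZNF765 and ZNF850 hold GGAC. Those of ZNF101 and ZNF611 do not. The windows of ZNF160, ZNF460, ZNF557, ZNF611 and ZNF765 run beyond the exon, so a GGAC in them need not lie in it.
ZNF562: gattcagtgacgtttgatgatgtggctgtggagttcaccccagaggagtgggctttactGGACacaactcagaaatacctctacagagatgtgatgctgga
ZNF468: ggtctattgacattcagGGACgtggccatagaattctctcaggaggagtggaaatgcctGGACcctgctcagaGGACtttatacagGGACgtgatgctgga
ZNF28: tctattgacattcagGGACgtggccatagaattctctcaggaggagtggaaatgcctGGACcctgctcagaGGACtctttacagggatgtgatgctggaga

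The second set shows the windows within finger arrays that the rule for named genes gave, with and without a copy of the linker. Capitals mark TGGAGAGA, the first 8 bases of TGGAGAGAAACC, which was the commonest 12-mer of the members' arrays, with 666 copies in the arrays of 151 of the 240 members. Of all array windows of this length in members with a summit, 31.3% hold TGGAGAGA. Of the 7 windows, 4 hold TGGAGAGA, those of ZNF616, ZNF808, ZNF525 and ZNF816, and those of ZNF160, ZNF28 and ZNF480 do not. They lie in the last exon at chr19:52115591-52115691 (ZNF616, minus strand), chr19:52554163-52554263 (ZNF808, plus strand), chr19:53381527-53381627 (ZNF525, plus strand), chr19:52950323-52950423 (ZNF816, minus strand), chr19:53069237-53069337 (ZNF160, minus strand), chr19:52800165-52800265 (ZNF28, minus strand) and chr19:52322603-52322703 (ZNF480, plus strand).
ZNF616: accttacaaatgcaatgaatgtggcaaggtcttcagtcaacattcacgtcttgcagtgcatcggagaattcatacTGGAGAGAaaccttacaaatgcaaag
ZNF808: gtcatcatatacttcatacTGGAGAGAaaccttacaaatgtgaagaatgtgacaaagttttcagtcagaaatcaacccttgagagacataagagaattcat
ZNF525: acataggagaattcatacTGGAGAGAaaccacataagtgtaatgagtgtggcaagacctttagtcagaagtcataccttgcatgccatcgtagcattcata
ZNF816: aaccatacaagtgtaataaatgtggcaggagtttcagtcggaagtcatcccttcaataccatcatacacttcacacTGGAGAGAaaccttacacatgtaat
ZNF160: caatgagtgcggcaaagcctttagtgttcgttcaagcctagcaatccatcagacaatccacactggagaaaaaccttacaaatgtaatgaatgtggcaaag
ZNF28: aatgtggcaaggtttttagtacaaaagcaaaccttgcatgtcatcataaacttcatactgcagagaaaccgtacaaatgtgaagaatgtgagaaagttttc
ZNF480: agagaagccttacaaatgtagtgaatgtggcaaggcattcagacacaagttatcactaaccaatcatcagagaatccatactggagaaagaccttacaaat

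Before any result, both lists and the cell type were examined. Peaks were called per sample at a loose limit, so that 70.8% of the member peaks in replicate 1 and 79.5% in replicate 2 had a q of 1. The fold enrichment, the caller's ratio of RIP signal to local background at the summit, took few distinct values. The 219 member peaks of replicate 1 had 133 distinct folds, the commonest being 2.16 in 9 peaks, and the 220 of replicate 2 had 117, the commonest being 2.19 in 11 peaks. The lists give no read numbers, and counting error could therefore not be given. Of 6 epithelial genes, only CDH1, an adhesion protein of epithelia, had exonic peaks, 4 in replicate 1 and 8 in replicate 2. EPCAM, KRT8, KRT18, KRT19 and ERBB2 had none. VIM, PTPRC and PECAM1, markers of mesenchymal, blood and endothelial cells, had none either, and COL1A1 had 5 peaks in replicate 2 only. Absence of a peak does not show absence of the mRNA, so the cell type label was not tested by these genes.

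To determine how many zinc finger mRNAs were recovered, members with at least 1 exonic peak were counted. Both replicates had a peak in 61 of the 240 members (25.4%), compared with 28% of all protein-coding genes. Replicate 1 had a peak in 72 members (30.0%), against 32.6% of all genes, and replicate 2 in 76, against 31.6%. These shares were close to those of all genes. A further 26 members had a peak in 1 replicate only, 11 in replicate 1 and 15 in replicate 2, with at most 4 peaks each. The remaining 153 members had none. Among the 236 ZNF genes of other chromosomes, 90 had a peak in both replicates (38.1%), and among the 1236 other protein-coding genes of chromosome 19, 205 did (16.6%). Summits were assigned without strand, and 11.4% of member summits lay in exons of more than 1 gene. For the other genes of other chromosomes this was 4.94%. With only summits in exons of 1 gene, 51 members had a peak in both replicates, and the same count over all genes was not made. Whether a member without a peak was not bound or not expressed cannot be told apart here, because mRNA levels were not analysed here.

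The peaks of the members were few per gene and weak. A member with a peak had 3.02 ± 0.106 peaks (SD, n = 2), compared with 4.76 for ZNF genes of other chromosomes and 6.69 for the other genes of other chromosomes. Per kb of exon this was 0.465 ± 0.0201 peaks (SD, n = 2), compared with 0.652 and 0.828, respectively. The median fold enrichment was 2.78 and 2.62 in the replicates, with a mean of 2.70 ± 0.115 (SD, n = 2), compared with 2.86 and 2.94. Both member medians lay below those of the ZNF genes of other chromosomes (2.89 and 2.83) and of the other genes (2.95 and 2.93). The difference from the ZNF genes of other chromosomes was of the order of the spread between replicates, and neither difference was tested. At a limit of 0.05 on q, 5 member peaks passed in replicate 1 (2.28%, against 10.2% of all exonic peaks) and 7 in replicate 2 (3.18%, against 7.81%). All 12 of these overlapped a deposited peak of the other replicate, and they fell in 8 genes.

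The replicates were next compared by position. Of the member peaks, 45.7% in replicate 1 and 45.9% in replicate 2 overlapped a peak of the other replicate by at least 1 bp, compared with 60.7% for ZNF genes of other chromosomes and 63.1% for the other genes of other chromosomes. The summits of the 100 shared pairs lay a median of 56.5 nt apart and 45% of them within 50 nt, compared with a median of 29 nt and 63.2% for the other shared exonic peaks. Across the 100 pairs, which share mRNAs and are not independent, Pearson's r of log2 fold was 0.427 and Spearman's rho was 0.446. Gene by gene, the number of peaks in the replicates had an r of 0.684 over the 87 members with a peak in either.

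Members of 2 stretches of the chromosome held most of the peaks. Clusters were ended where neighbouring members lay over 1 Mb apart, which gave 16. The cluster from ZNF175 to ZNF331 (chr19:51571283-53580269) had 39 members, of which 19 had a peak in both replicates (48.7%) and 17 had none. It held 92 member peaks in replicate 1 and 77 in replicate 2, or 42% and 35.0% of all member peaks. Its median fold was 2.92 and 57.4% of its peaks were shared. The cluster from ZNF557 to ZNF846 (chr19:7069703-9793180) had 7 of 15 members with a peak in both, with 31 and 39 peaks.

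The other large clusters had lower shares, set against 28% of all protein-coding genes. From ZNF101 to ZNF254 (chr19:19668796-24129968), 4 of 37 members had a peak in both replicates and 31 had none, with 10 and 15 peaks. The distal cluster from ZNF628 to ZNF446 had 11 of 57 members with a peak in both, and those of 24 or 25 members had 4 (ZNF653 to ZNF791), 5 (ZNF565 to ZNF573) and 7 (ZNF575 to ZNF296), the last of which was 29.2%. Shares of bound members thus ran from 10.8% to 48.7% over the clusters of 15 or more members.

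**Figure D1:**
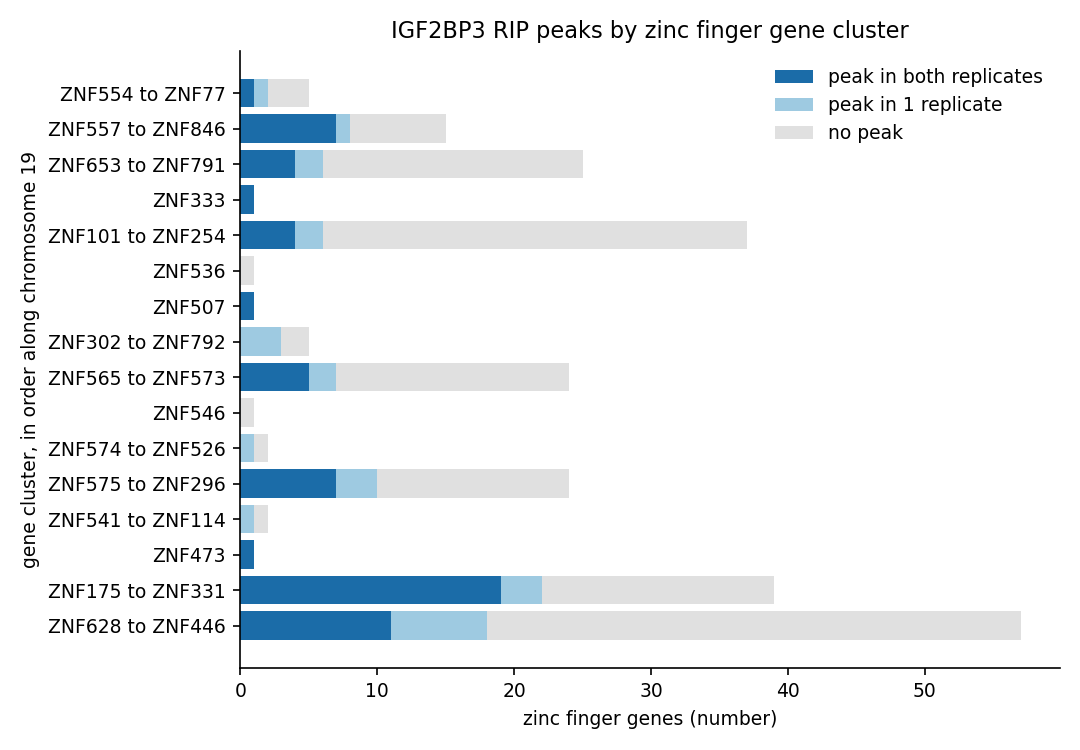
Zinc finger genes of chromosome 19 by cluster, in order along the chromosome (vertical axis), with the number of genes (horizontal axis) that had an IGF2BP3 RIP peak in both replicates, in 1 replicate or in none. The cluster from ZNF175 to ZNF331 had 19 of 39 genes with a peak in both, and the cluster from ZNF101 to ZNF254 had 4 of 37.

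The members with the most peaks came mainly from these 2 stretches. ZNF562, with 6 fingers and a KRAB A box, had 6 peaks in replicate 1 and 11 in replicate 2. ZNF160 had 9 and 8, ZNF468 had 7 and 9, and ZNF561, the neighbour of ZNF562, had 6 and 9. ZNF28 had 7 in each replicate. More peaks were called in replicate 1 for ZNF616 (9 and 5), ZNF525 (8 and 5), ZNF808 (7 and 4), ZNF611 (6 and 4) and ZNF8 (6 and 4), so that no replicate was higher throughout. ZNF8 was the 1 gene of these 10 outside the 2 stretches, lying near the distal end of the chromosome.

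**Figure D2:**
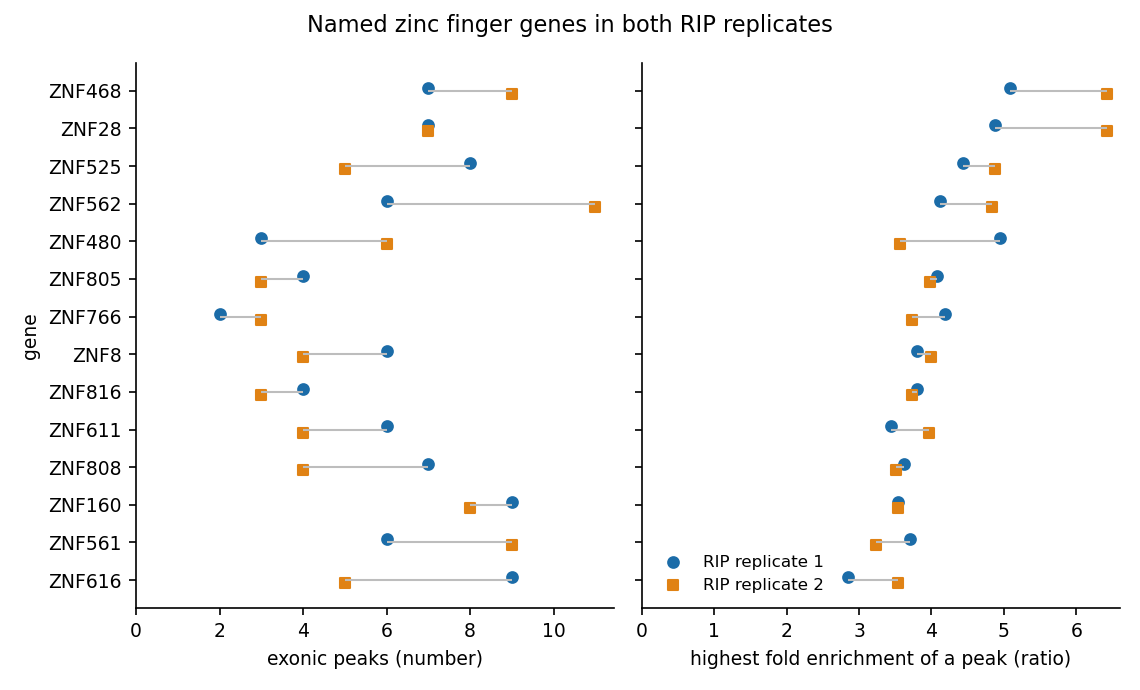
Number of exonic IGF2BP3 RIP peaks (left) and highest fold enrichment of a peak (right, ratio given by the peak caller) for the 14 zinc finger genes named by number of peaks or by fold, with a point for each replicate. ZNF468 and ZNF28 had the highest folds as means over replicates, up to 6.42 at a peak in an exon of both, and the highest folds of the others lay below 5 in both replicates.

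ZNF28 and ZNF468 had the highest folds as means over both replicates, although in replicate 1 ZNF480 (4.94) was above ZNF28 (4.88). ZNF28 and ZNF468 were also the only members with a peak at a q of at most 0.05 in both replicates. They lie next to each other on the minus strand, ZNF28 at chr19:52797408-52857600 and ZNF468 at chr19:52838010-52857649, and have exons in common at their 5′ ends. The highest fold of a ZNF468 peak was 5.09 in replicate 1, in the 3′ UTR, and the same site had 4.69 in replicate 2, with summits 6 nt apart. The ZNF28 peak in the exon of the A box had 4.88 in replicate 1 (q = 7.05e-05) and 3.57 in replicate 2 (q = 0.912). The highest member fold, 6.42 in replicate 2 (q = 6.32e-05), was at a summit in an exon of both genes, in the 5′ UTR of ZNF468, and had 3.24 in replicate 1. Peaks there cannot be told apart between ZNF28 and ZNF468. The ZNF468 peak in the exon of the A box had 3.53 in replicate 1 (q = 0.716) and 4.31 in replicate 2 (q = 0.00424). A q of at most 0.05 at the same site in both replicates was found only in the 3′ UTR of ZNF468, with q = 0.0288 and q = 0.0285.

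A broad ZNF28 peak of 2584 bp in replicate 2, with the summit in finger 9 of the array, had a fold of 5.84 (q = 0.00645) and met a replicate 1 peak of 3.38. In replicate 1, the other peaks with a q of at most 0.05 were in the 3′ UTR of ZNF480 (4.94, q = 0.0108) and of ZNF83 (4.04, q = 0.00282) and in exon 3 of ZNF766 (4.18, q = 0.0211). In replicate 2, they were in the 3′ UTR of ZNF525 (4.88, q = 0.0142), before the array in exon 6 of ZNF611 (3.96, q = 0.0169) and in finger 7 of ZNF507 (4.07, q = 0.00267). Each of these 6 genes reached the limit in 1 replicate only. Among the 10 highest mean folds, ZNF562 (4.12 and 4.84), ZNF805 (4.08 and 3.98), ZNF8 (3.8 and 4.0) and ZNF816 (3.8 and 3.74) had no peak at this limit, and no ZNF805 peak was shared between the replicates.

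Among members with a described role, the transposable element repressors ZNF91, ZNF93 and ZNF649 had no peak, nor did ZNF420 and ZNF331. ZNF675 had 4 peaks in replicate 2 and none in replicate 1, and ZNF274, which recruits SETDB1 to zinc finger genes, had 1 peak in replicate 1 only. ZNF224, a KRAB repressor whose A box the pattern used below did not find, had 3 and 2 peaks, with highest folds of 2.42 and 2.96, and none of them was shared. The mRNAs of the KRAB repressor partners, which are no members, had peaks in both replicates in 12 of 18 cases (66.7%, against 28% of all protein-coding genes). ATF7IP, a cofactor of SETDB1, had 23 and 14 peaks with highest folds of 7.67 and 5.92, and TRIM24 had 14 and 20 with 6.69 and 7.49. SETDB1 had 4 and 3 peaks. TRIM28, the protein that the A box binds, had none, nor did CBX1, CBX3, CHD4, HDAC1 and HDAC2.

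Where the summits lay in the mRNAs was examined on the canonical coding transcripts of the members with a summit, with 202 summits in replicate 1 and 204 in replicate 2 on 83 mRNAs. The 5′ UTR held 13.5% ± 3.04 (SD, n = 2) of the summits and 6.13% of the mRNA length. The CDS outside a stop codon window, which reached 200 nt to each side of the codon, held 52.7% ± 3.81 of the summits and 35.8% of the length. The stop codon window held 5.67% ± 1.08 against 8.31%, and the 3′ UTR 28.1% ± 5.77 against 49.8% (SD, n = 2 each). Summits were thus denser than length in the 5′ UTR and CDS and sparser in the 3′ UTR, in both replicates.

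Compared with other mRNAs, a smaller share of the summits lay in the CDS, where the members had 0.751 ± 0.0596 summits per kb and the other genes of other chromosomes 2.09 ± 0.0228 (SD, n = 2 each). In the 3′ UTR the members had 0.288 ± 0.0572 and those genes 0.40 ± 0.0327, so that the larger 3′ UTR share did not go with a higher density. In the 5′ UTR the densities were 1.13 ± 0.261 and 0.961 ± 0.0544, which differed by less than the spread between replicates (SD, n = 2 each). As shares, 3.57% of the summits of the other genes lay in the 5′ UTR, which was 4.39% of the length, 72.1% in the CDS and 15.9% in the 3′ UTR. In ZNF genes of other chromosomes the shares were 8.56%, 61.2% and 21.7%. The replicate ranges of these shares in the members did not overlap those of the other genes in any of the 3 regions.

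**Figure D3:**
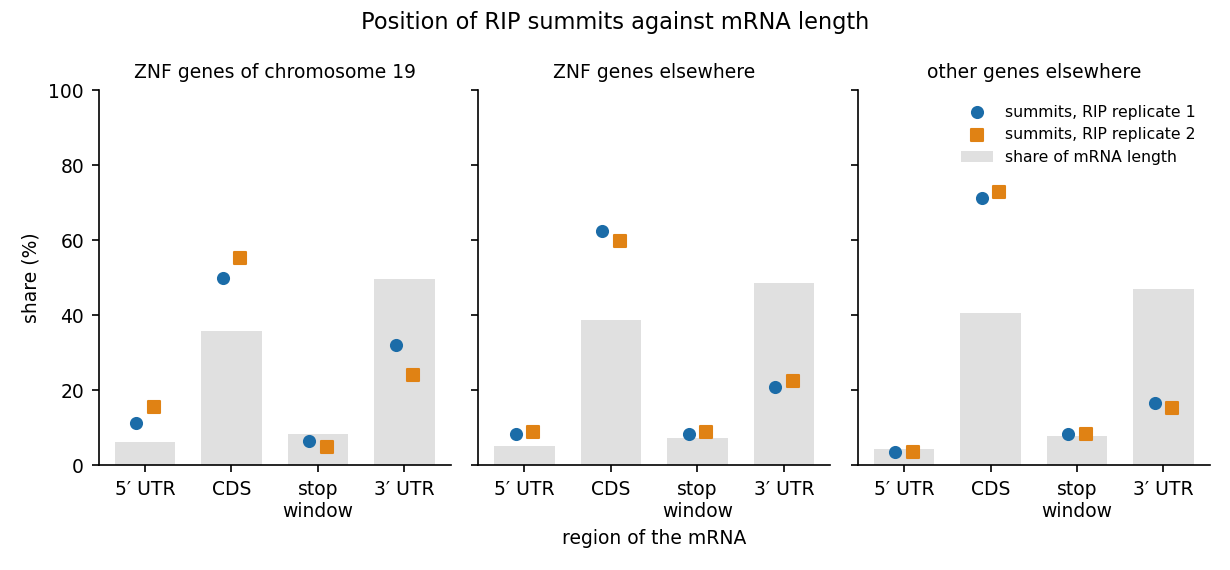
Share of IGF2BP3 RIP summits (points, 1 per replicate) and of mRNA length (bars) in the 5′ UTR, the CDS outside the stop codon window, the stop codon window and the 3′ UTR, in percent, for 3 groups of genes. In zinc finger mRNAs of chromosome 19 the CDS held 50% and 55.4% of summits in replicates 1 and 2, compared with 35.8% of the length.

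Within the CDS, summits were sparser in the finger arrays than in the CDS outside them taken as a whole. The arrays made up 62.5% of the CDS length of the bound members but held 43.1% ± 4.45 (SD, n = 2) of the CDS summits, 50 in replicate 1 and 46 in replicate 2. Per kb this was 0.483 ± 0.0285 summits in arrays against 1.06 ± 0.13 in the CDS outside them (SD, n = 2 each), a difference larger than the spread between replicates. In ZNF genes of other chromosomes the densities were 1.03 per kb in arrays and 1.28 outside. The difference in the members did not hold for all of the CDS outside the arrays. In 64 bound mRNAs with a KRAB A box, arrays had 0.495 and 0.468 summits per kb in replicates 1 and 2. Their CDS outside the arrays, the exon of the A box and other short coding exons had 0.525 and 0.833. These differed by less than the spread between replicates. Each peak gave 1 summit whatever its width, so these densities do not show how much of a region was covered by peaks. Member peaks had a median width of 122 bp in replicate 1 and 98 bp in replicate 2. The ZNF28 peak of 2584 bp in replicate 2, with its summit in the array, also counted as 1. Whether arrays were less covered than the rest of the CDS was not tested. The median fold was 2.73 in the arrays and 2.71 outside, and 41.7% and 43.7% of the peaks were shared, so that both measures differed by less than the spread between replicates. The number of fingers, from 1 to 36 with a median of 12, had an r of 0.0863 with the mean number of peaks over the 87 members with a peak, whereas exon length had an r of 0.309, as a description across genes.

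The KRAB A box was found in 174 members by a protein pattern. Peaks in both replicates were found in 47 of the 174 (27%) and in 14 of the 66 members without a match (21.2%), both near the 28% of all genes. The pattern missed the A box of ZNF224, so the 66 are not all members without an A box. These shares therefore do not compare members with and without the domain. After the strongest CDS sites had been seen, the exon of the A box was examined by itself in the 64 A box mRNAs with a summit. This exon had a median length of 127 nt and made up 2.57% of the mRNA length, but held 20 of the summits in each replicate, or 12.4% and 12%. Its density was 2.45 summits per kb in both replicates, compared with 0.482 ± 0.0195 in the arrays and 0.305 ± 0.0392 in the 3′ UTR of the same mRNAs (SD, n = 2 each). Summits fell in it in 30 mRNAs, and in 10 of them in both replicates: ZNF28, ZNF101, ZNF160, ZNF460, ZNF468, ZNF557, ZNF562, ZNF611, ZNF765 and ZNF850.

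A density of this order was not particular to the exon of the A box. The 71 other coding exons of at most 200 nt outside the arrays had 2.01 ± 0.527 summits per kb. Replicate 1 had 11 summits there (1.64 per kb) and replicate 2 had 16 (2.38 per kb). The remaining CDS outside the arrays had 0.679 ± 0.218 (SD, n = 2 each), which differed from the 0.482 in the arrays by less than the spread between replicates. Within these mRNAs, the higher densities thus went with the short coding exons as a class. They were high against the rest of these mRNAs, whereas the CDS of the other genes of other chromosomes, over exons of all lengths, had 2.09 summits per kb. The short coding exons of those genes were not measured, so like regions were not compared. Here too each peak gave 1 summit whatever its width, and the sequence covered by peaks was not compared. The last exon held 66.0% of member summits and 88.4% of the mRNA length. In ZNF genes of other chromosomes it held 42.6% of the summits and 73.3% of the length.

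**Figure D4:**
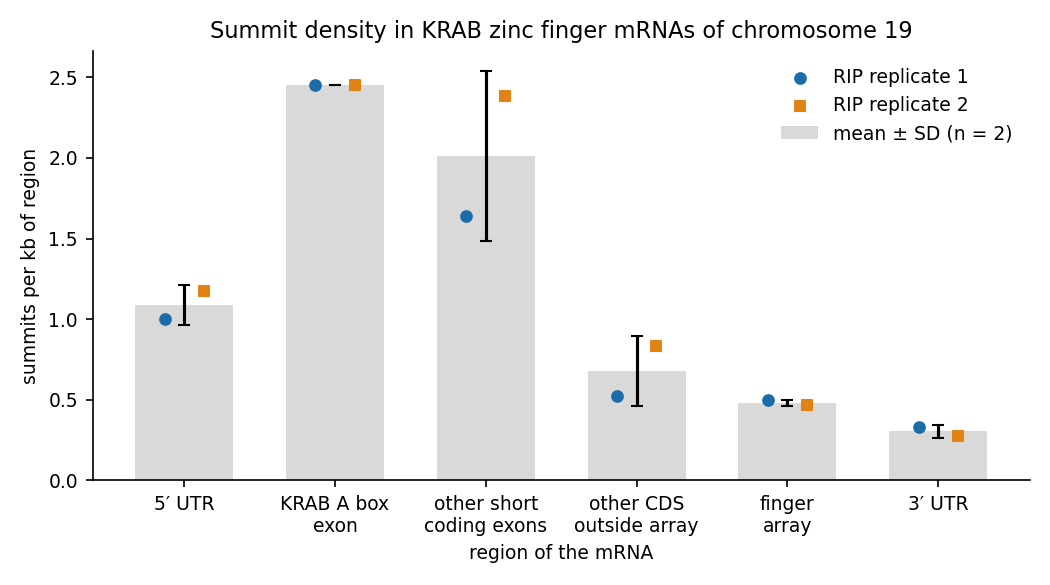
IGF2BP3 RIP summits per kb by region in the 64 zinc finger mRNAs of chromosome 19 with a summit and a KRAB A box found by the protein pattern. Bars are means with SD over both replicates and points are the replicates. The exon of the KRAB A box had 2.45 summits per kb and the other short coding exons 2.01, compared with 0.482 in the finger arrays.

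Repeated sequence touched summits in the exon of the A box more than summits in the arrays. Of the 40 summits in that exon, 13 (32.5%) had a 51-nt window that occurs more than once in the genome. Over all positions in these exons the share was 13.2%, but those windows were taken from the spliced mRNA and the summit windows from the genome. A spliced window across an exon junction is mostly absent from the genome, which lowers the share of positions in so short an exon. These shares are therefore not alike, and an excess at summits cannot be read from them. In the arrays, 8.57% of the summits and 7.58% of the positions had a repeated window. The ZNF468 and ZNF28 windows of this exon shown above are found at 11 and 10 places, respectively, at 51 nt, each at 1 place at the length printed, and the ZNF562 window is found once at either length. With only the summits whose 51-nt window occurs once, there were 1.66 ± 0.0867 per kb in the exon of the A box and 0.440 ± 0.0195 in the arrays (SD, n = 2 each). The full length of each region was kept, including positions that cannot hold such a summit. These values are thus not densities over sequence that occurs once. Over all member peaks, 9.80% ± 0.354 (SD, n = 2) had a repeated 51-nt window, compared with 0.863% in ZNF genes of other chromosomes. These were 22 peaks in replicate 1 and 21 in replicate 2, of which 25 lay in the cluster from ZNF175 to ZNF331. How reads with several matches were treated is not given in the sources used here.

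Within the finger repeat, summits lay mainly in the first part. A repeat of 84 nt was counted from the first cysteine of a finger and cut into 4 bins of 21 nt. Replicate 1 had 15, 21, 4 and 8 summits in bins 1 to 4, and replicate 2 had 12, 16, 8 and 6. Bins 1 and 2, from the first cysteine to the middle of the repeat, held 75% and 66.7% of the summits and 50.2% of the bases, and in ZNF genes of other chromosomes 55.1% and 55.2%. These counts were small and peaks are not independent, and the position was not tested.

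**Figure D5:**
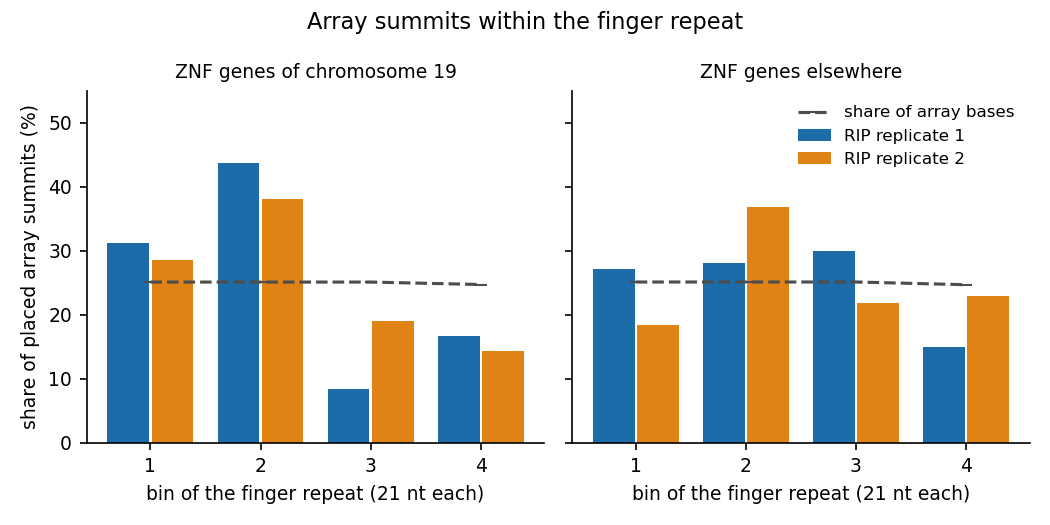
Share of array summits in each bin of the finger repeat, with 4 bins of 21 nt (bars, 1 per replicate, in percent of the summits placed) and share of array bases in that bin (dashed line). In zinc finger mRNAs of chromosome 19, bins 1 and 2 held 75% of 48 summits in replicate 1 and 66.7% of 42 in replicate 2, compared with 50.2% of the bases.

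Finally, the linker and GGAC were counted in windows of 50 nt before and after each summit, on the mRNA strand only. TGGAGAGAAACC was in 18.0% of the 50 array windows of replicate 1 and in 28.3% of the 46 of replicate 2, compared with 21.2% of all array windows of these mRNAs, so that the replicates lay on either side of that share. In windows of 51 nt it was at 6 of the 96 array summits of both replicates (6.25%) and in 9.68% of all array windows, so that array summits did not hold the linker more often than the arrays as a whole in windows of that length. The shorter TGGAGAGA was in 34.0% and 43.5% of the longer array summit windows of replicates 1 and 2, compared with 31.3% of all such windows. In windows of 51 nt it was in 8.33% compared with 15.4%.

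GGAC differed in frequency between parts of the mRNA. It was in 25.4% and 29.4% of the member summit windows of replicates 1 and 2, compared with 19.3% of all windows of the bound members and 32.0% of the summit windows in other mRNAs. In arrays it was in 8% and 8.70% of the summit windows and in 12.8% of all array windows. Outside the arrays it was in 46.6% and 49.3% of the CDS summit windows and in 36.6% of all such windows, and TGGAC, which contains it, was in 31.0% and 29.0% against 16.7%. Sorted further in the 64 A box mRNAs, GGAC was in 28 of the 40 windows at summits in the exon of the A box (70.0%) and in 67.9% of all windows centred there, and TGGAC was in 57.5% and 52.3%. Windows centred in this exon can reach beyond it. In the rest of the CDS outside the arrays, GGAC was in 35.2% of the summit windows and in 30.4% of all windows. A match shows only that the letters are present.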

How the data were processed

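Per the submitters' processing notes, the authors used fastp, HISAT2 and MACS2 on hg38, whereas the study's methods name Tophat2 and MACS2 with default settings. Versions and the caller's control library are not given in the sources used here. Each deposited list held peak positions, a score, a fold enrichment (a ratio), −log10 p and −log10 q of the authors' caller, 1 list per RIP replicate. The deposited −log10 p started at 2.0003 (replicate 1) and 2.00226 (replicate 2). Depth is unknown.

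Summits were assigned to exons of GENCODE 44 without regard to strand, since the lists carry none. Regions came from the canonical coding transcript of each gene, with the stop codon window as 200 nt on either side. Fingers were found in the translated CDS by the spacing of their cysteines and histidines, an array ran from the first to the last finger, and the KRAB A box was found by a protein pattern. Sequences and counts of repeated windows were read from hg38 on both strands. Peaks were shared if they overlapped by 1 bp. No groups could be compared by a test, so values are means with SD over n = 2. With 4000 simulated summits, 100% were recovered in position and region. This used the same exon positions and region rule, so it checks only the conversion of coordinates and not the annotation or the assignment of peaks.

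Members, lists and alternatives were chosen with earlier results of these data known. Named were the 10 members with the most peaks, the 10 with the highest mean of the highest folds (both among members with a peak in both replicates), those with a q of at most 0.05 in both, 8 with a described role, and 18 KRAB partners. Alternatives were limits on p or q, other overlap, gene assignment, window and finger rules, windows found once, and leaving out each replicate. The exon of the A box, the other short exons and their alternatives were examined after the data had been seen. Versions were matplotlib 3.10.9, scipy 1.17.1, pandas 2.3.3, numpy 2.4.6 and Python 3.11.15.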

Additional observations from a re-analysis of the deposited data

Results flagged for a closer look

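Peaks with the summit in an intron of a member, which the counts above leave out, numbered 1 in replicate 1 and 5 in replicate 2, in 1 and 4 genes, respectively. They were listed here because they lie outside the exonic peaks, with no control list to set them against. Their median folds were 2.22 and 2.19, none had a q of at most 0.05, and 1 of the 5 in replicate 2 overlapped a peak of the other replicate.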

How the results depend on the processing

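No paired analysis was possible because only the RIP group had peak lists. Peaks per replicate, fold and shares for each replicate alone differed from the mean by no more than 1 SD, which 2 values always satisfy, so this is no check of stability, and members with peaks in both are not defined for 1 replicate. A q of at most 0.05 left 2 members with peaks in both, 6 peaks per replicate, a median fold of 4.78, 17.1% shared within the limited lists, 48.6% of summits in the CDS, 25% of CDS summits in arrays and the linker in 0% of windows, all over few peaks. A p of at most 0.001 left 35 members, 112 peaks, a fold of 3.05, 39.7% shared, 33.3% in arrays and GGAC in 31.0%. An overlap of 50% of both peaks gave 20.7% shared. Shared peaks alone had a fold of 2.93 and the linker in 10.0% of windows. With 25 nt on either side of summits the linker was in 1.73% and GGAC in 16.8% of windows, and with 100 nt in 12.8% and 40.1%, which follows from window length. The other planned values moved by less than the spread between replicates or, for counts, by less than 1.5 times, among them 58 members with peaks in both for windows found once and 51 for summits in exons of 1 gene. For alternatives chosen after seeing the data, the exon of the A box and the arrays had 1.66 and 0.440 summits per kb with windows found once, 1.29 and 0.206 with shared peaks, 1.53 and 0.186 with a p of at most 0.001, and 2.21 and 0.454 without ZNF28 and ZNF468. The full length of each region was kept in all of these, also for windows found once and without ZNF28 and ZNF468, which lowers those values. The exon of the A box had more summits per kb than the arrays in each setting.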
